A study of Homo sapiens with 6 samples.

Results

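The KDM2B gene is the target of the short hairpin RNA in this study, and its chromatin was described here from every called peak that overlaps the gene by at least 1 bp. The gene (NCBI gene 84678) was taken as chromosome 12, 121866900 to 122018920 in hg19, on the minus strand, a span of 152021 bp, with 20 kb on each side as context. Of 27470 peaks on the assembled chromosomes in the 6 deposited lists, 3 overlapped this span and 0 lay in the flanks. The locus was selected on its role as hairpin target and partly on its H3K79me3 tags per kb in the 2 lines, whose difference is among the largest in these data, so that difference is a description and carries no test.

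All libraries came from 293T, an embryonic kidney cell line of human origin that expresses SV40 large T antigen. A line with a stable control hairpin (shCTL) and a line with a stable hairpin against KDM2B (shKDM2B) each gave 1 H3K79me2 library, 1 H3K79me3 library and 1 input library made without antibody. The labels do not say whether either line is a single clone. The depth after duplicate removal ran from 11912494 to 17044011 tags. The degree of knockdown is not known from these data, since neither KDM2B RNA nor its protein was measured in them. No difference has a replicate check, because each group is 1 library, and every interval is a 95% interval that covers counting error only.

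KDM2B is a chromatin protein with a JmjC domain, the fold of many histone demethylases, and a CXXC zinc finger that binds unmethylated CpG dinucleotides and brings a Polycomb complex to CpG islands. The gene is also read from an internal start, which gives a shorter protein without the JmjC domain that keeps the CXXC finger. Methylation of lysine 79 of histone H3 is laid down by DOT1L and typically covers the first part of transcribed genes, downstream of their starts. A short hairpin RNA acts on the transcript and leaves the DNA of its target gene in place. The study asked whether KDM2B removes methyl groups from H3K79, and at this locus that question concerns the chromatin of the gene whose transcript was targeted.

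The RefSeq promoter table (GRCh38.p14, minus strand) holds 4 start windows for KDM2B, each with 250 bases before and 50 after a start. They are numbered here from the upstream end. Starts 2 and 3 lie 777 and 1364 bp downstream of start 1, and start 4 lies 113.6 kb downstream of it. The first and the last window are shown because the gene's peaks lay at a distance from its upstream end that is close to that of start 4 and far from the others. Capitals mark CG, which reads the same on both strands.
KDM2B start 1: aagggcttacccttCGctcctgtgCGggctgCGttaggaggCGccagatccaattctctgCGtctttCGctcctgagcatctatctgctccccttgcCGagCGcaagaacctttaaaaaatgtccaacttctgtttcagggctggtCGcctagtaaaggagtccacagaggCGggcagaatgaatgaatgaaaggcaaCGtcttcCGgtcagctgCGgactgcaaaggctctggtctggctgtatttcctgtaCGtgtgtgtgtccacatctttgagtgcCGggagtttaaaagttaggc
KDM2B start 4: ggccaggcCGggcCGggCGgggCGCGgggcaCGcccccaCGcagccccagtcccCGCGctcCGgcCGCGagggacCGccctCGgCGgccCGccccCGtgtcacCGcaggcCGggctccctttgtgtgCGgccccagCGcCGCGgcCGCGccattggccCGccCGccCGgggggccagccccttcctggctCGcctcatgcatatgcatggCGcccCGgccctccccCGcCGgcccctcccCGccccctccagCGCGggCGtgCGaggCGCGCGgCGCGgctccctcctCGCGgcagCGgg
Start 4 held 46 CG in 300 bases, and 2.89% of 35116 RefSeq start windows of that length held at least as many. Start 2 held 33 (17.2% of windows with at least as many), and starts 1 and 3 held 15 each (48.9%). The median window held 14. GRCh38 and hg19 were not aligned to each other here, so no window was placed under a peak. Exons and introns of hg19 were not used here.

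In hg19 the peaks lay together in the downstream part of the gene. The control H3K79me2 peak ran from 121900489 to 121904799, the control H3K79me3 peak from 121902887 to 121904777 and the knockdown H3K79me3 peak from 121900336 to 121904822. The knockdown H3K79me2 list and both input lists held 0 peaks in the gene. Together the 3 peaks spanned 4487 bp, or 2.95% of the gene. No library had a called peak over the first 114.1 kb from the upstream end or over the last 33.4 kb. The lists hold only stretches that passed the caller's threshold, so a place without a peak is not a measured absence of the mark.

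**Figure D1:**
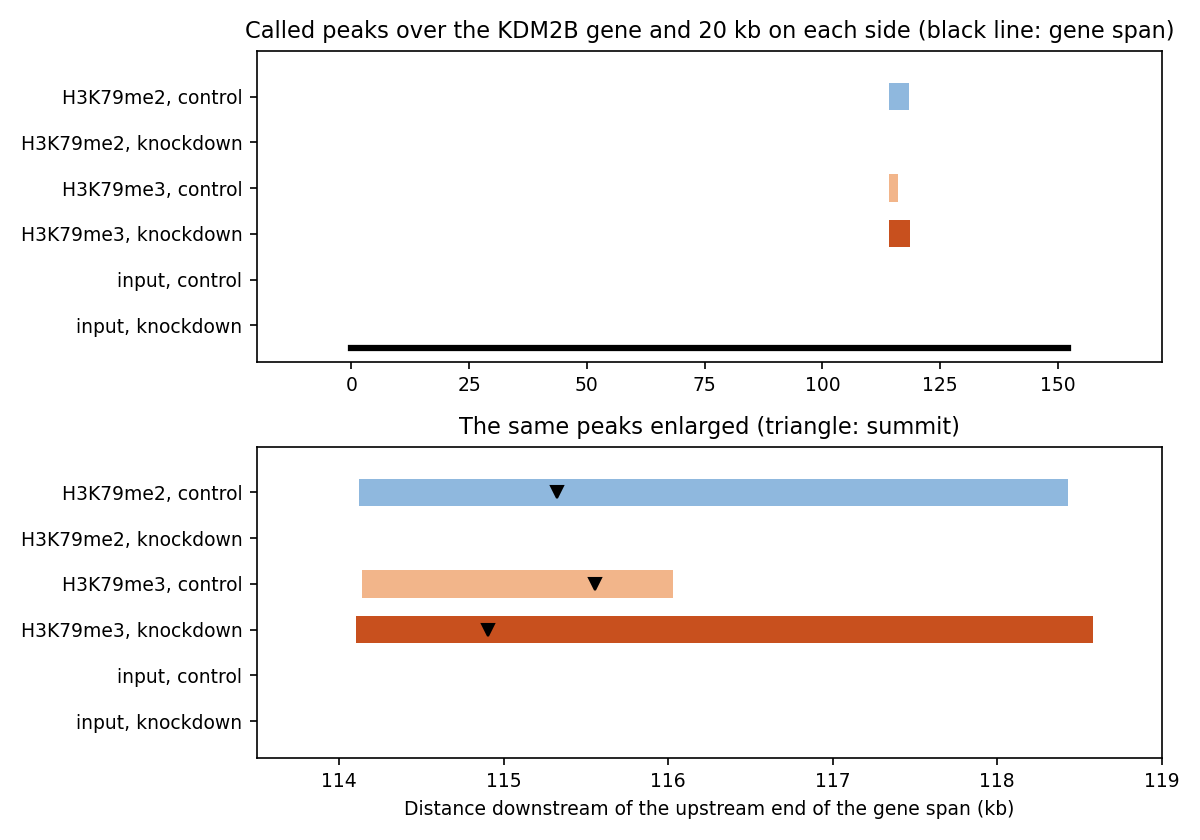
Peaks called in each of the 6 libraries (rows) against distance downstream of the upstream end of the KDM2B span in kb. The upper panel shows the gene with 20 kb on each side, and the lower panel enlarges the only occupied stretch, where the 3 peaks share an upstream edge at about 114.1 kb and triangles mark their summits.

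The peaks shared their upstream edge and differed in how far they reached into the gene. The upstream edges lay 114098 bp (knockdown H3K79me3), 114121 bp (control H3K79me2) and 114143 bp (control H3K79me3) from the upstream end of the span, within 45 bp of each other. The downstream edges differed by up to 2551 bp. The control H3K79me3 peak ended 116.0 kb into the gene, the control H3K79me2 peak at 118.4 kb and the knockdown H3K79me3 peak at 118.6 kb. The summits lay at 114.9 kb in knockdown H3K79me3, 115.3 kb in control H3K79me2 and 115.6 kb in control H3K79me3, so all fell between 75.6 and 76.0% of the way along the span. The knockdown H3K79me3 peak covered 100% of both control peaks. It was almost the same interval as the control H3K79me2 peak, which filled 96.1% of it, whereas the control H3K79me3 peak filled 42.1%. The estimated fragment length, which sets the caller's window, was 126 bp in knockdown H3K79me3, 180 bp in control H3K79me3 and 148 bp in control H3K79me2, and its part in the called lengths was not tested.

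H3K79me3 at KDM2B was low in control cells and higher in knockdown cells. The control peak held 57 tags in 1891 bp, or 3.34 tags per 1000000 filtered tags (RPM; interval 2.53 to 4.33) and 1.77 RPM per kb (interval 1.34 to 2.29). The knockdown peak held 439 tags in 4487 bp, or 26.8 RPM (interval 24.3 to 29.4) and 5.97 RPM per kb (interval 5.42 to 6.56). Per kb of called peak the knockdown level was 3.38 times the control level (interval 2.56 to 4.53), a log2 ratio of 1.76 with a counting SE of 0.20. In summed tags the knockdown level was 8.01 times as high (interval 6.07 to 10.7), and this value includes the 2.37 times longer call. Control tags outside the called 1891 bp are not in the list, so this ratio leaves them out and its interval does not cover that. Over the local background of its own library, the authors' fold enrichment of the peak was 3.41 in control and 4.44 in knockdown.

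**Figure D2:**
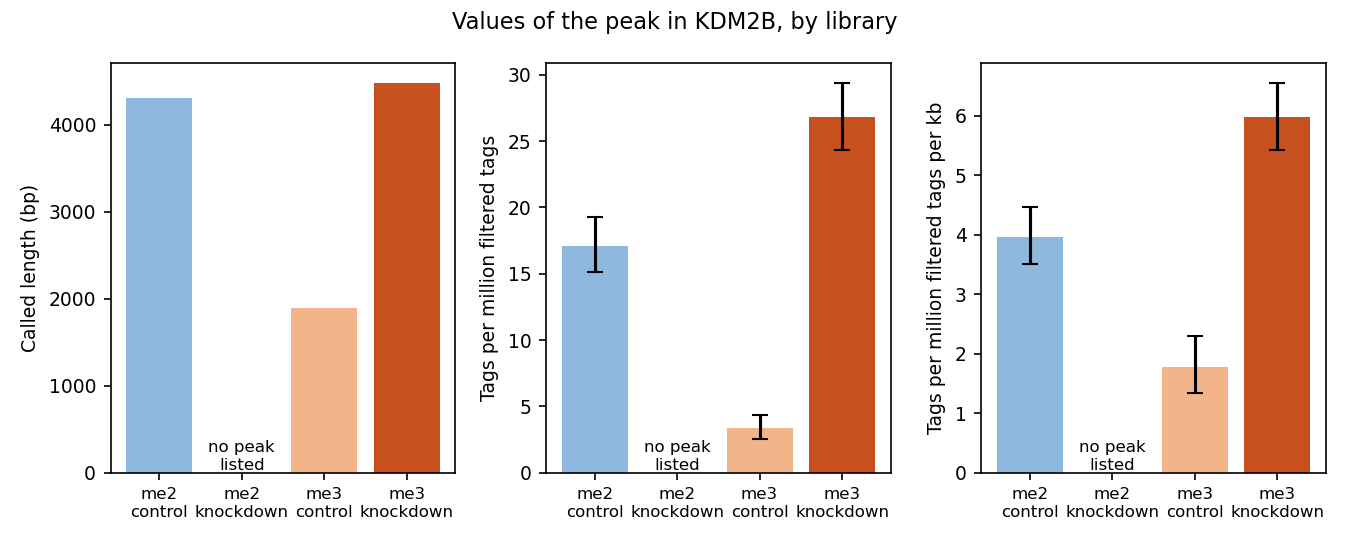
Called length in bp, RPM, and RPM per kb of the KDM2B peak in the 4 ChIP libraries; bars are single libraries and error bars are 95% Poisson counting intervals. Knockdown H3K79me3 stands above control H3K79me3 in each panel, and knockdown H3K79me2 has no listed peak and so no bar.

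Within the control list, the H3K79me3 peak of KDM2B was among the weakest calls, and within the knockdown list it stood above the middle. Its control score, 53.8, was above that of 3.13% of the control H3K79me3 peaks, in a list that starts at 50.02. Its control density exceeded that of 6.95% of the list. In knockdown cells the score was 365, above 71.1% of the list, and the density exceeded that of 67.7% of the list. Its fold enrichment stayed in the lower part of both lists, above 6.41% of control and 21.9% of knockdown peaks.

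For H3K79me2 a peak was listed in control cells and none in knockdown cells. The control peak held 274 tags in 4311 bp, or 17.1 RPM (interval 15.1 to 19.3) and 3.97 RPM per kb (interval 3.51 to 4.47). It was a middling peak of its list, with a score of 202 above 54.6% of the control H3K79me2 peaks and a density above 50.1% of them. Its length exceeded that of 74.9% of the list, and its fold enrichment of 4.16 exceeded only 19.2%. No ratio was computed for H3K79me2, because a missing peak gives neither a value of 0 nor an upper limit. The H3K79me2 and H3K79me3 levels come from different antibodies and were not compared with each other.

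The missing H3K79me2 call was set against the other control peaks. Of 6827 control H3K79me2 peaks, 19.0% had no knockdown counterpart. In the quartile of scores that holds the KDM2B peak (180 to 329) the share was 6.92% (118 of 1706 peaks, interval 5.76 to 8.23%). In the lowest quartile of fold enrichment, which also holds it, the share was 39.0% (666 of 1708 peaks, interval 36.7 to 41.4%), so the measure chosen decides how usual the missing call looks. It was 13.1% in the quartile of tags that holds the peak and 14.2% in that of RPM per kb. Of score, length, tags, RPM per kb and fold enrichment, only fold enrichment placed it in a quartile with a share above 19.0%. By length the KDM2B peak was at the upper end of the third quartile, where 11.2% had no counterpart, and the share was 24.3% in the longest quartile. The knockdown H3K79me2 library had 0.821 of the filtered tags of its control, and at the control density and length it would hold 225 tags over this interval. The control score multiplied by that depth ratio is 166. Neither value says whether a call would be made, because the caller scores against the background of each library. The knockdown list contained long peaks of lower density. Of its 1550 longest peaks, those of at least 4634 bp, 331 (21.4%) were below 3.97 RPM per kb, down to 2.13. The estimated fragment length, which sets the caller's window, was 210 bp in knockdown H3K79me2 and 148 bp in control H3K79me2. Whether depth, fragment length or the local background that the caller used played a part in the missing call was not tested.

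**Figure D3:**
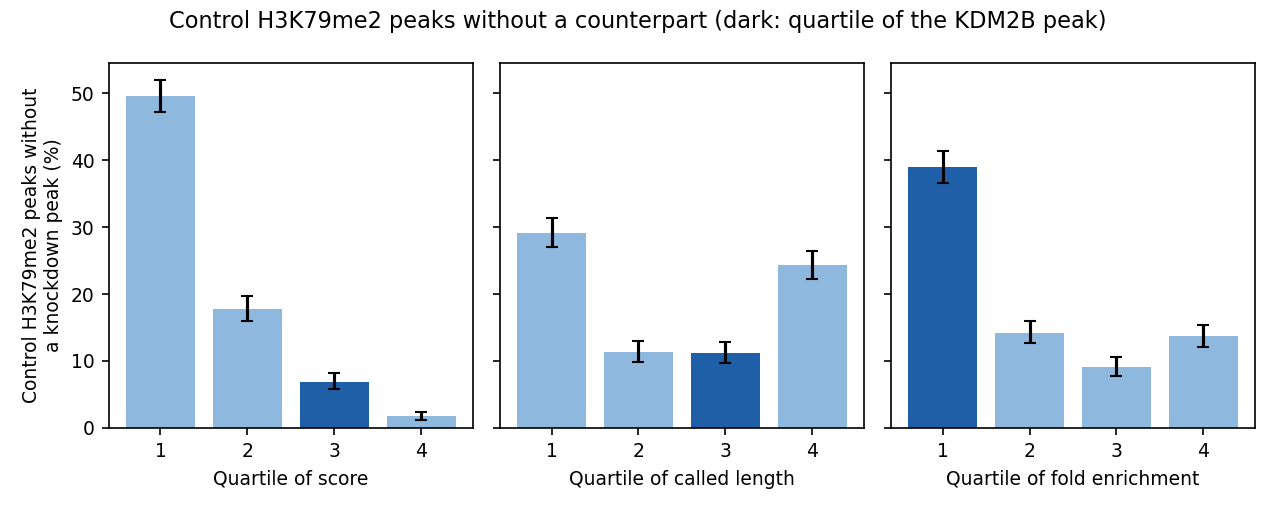
Percentage of control H3K79me2 peaks with no overlapping knockdown H3K79me2 peak, by quartile of score, called length and fold enrichment (1 is the lowest); error bars are exact 95% binomial intervals and the dark bar holds the KDM2B peak. The share is 6.92% in its score quartile and 39.0% in its fold quartile.

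Set beside all regions with an H3K79me3 peak in both lines, KDM2B had the highest ratio per kb. Over 5087 such regions the median log2 ratio was 0.55, and 7.43% were at least 2-fold higher in knockdown cells. Because the rule that picked the locus used this contrast, nothing is read from that position. By summed tags KDM2B ranked 16 from the highest, where 22.7% of the regions were at least 2-fold higher. By called length it ranked 126, where 4.42% were at least 2-fold longer. Relative to the median region the log2 ratio per kb at KDM2B was 1.21, or 2.31 times the ratio of the median region.

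The combination seen at KDM2B, H3K79me2 in control only with H3K79me3 in both lines, was found in 505 of 8899 regions merged over the 4 ChIP lists (5.67%). H3K79me3 was at least 2-fold higher per kb in knockdown cells in 45 of these 505 regions (8.91%), against 302 of the 3922 regions with both marks in both lines (7.7%). The median log2 ratio was 0.59 in the former and 0.55 in the latter. The difference between the classes was not tested, and the KDM2B value, which was used to pick the locus, is not read against either. The KDM2B region was shorter than most of its class, since 66.5% of the 505 regions were longer and their median length was 5921 bp.

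**Figure D4:**
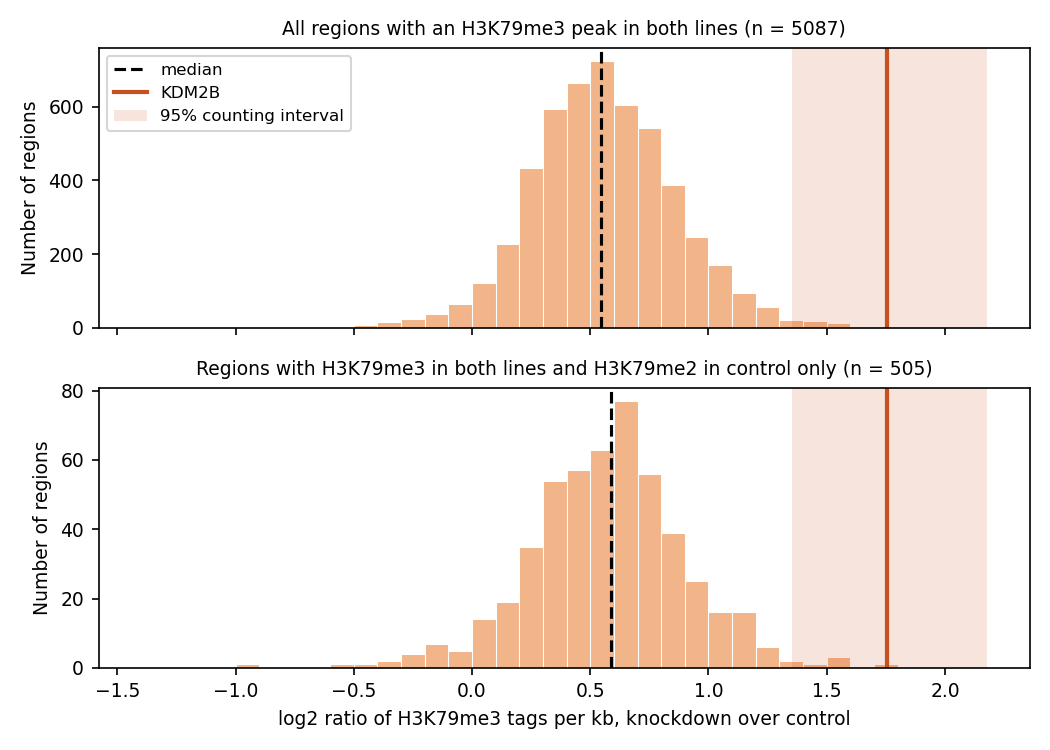
Number of regions by log2 ratio of H3K79me3 tags per kb, knockdown over control, for the 5087 regions shared by both lines (upper) and the 505 with H3K79me2 in control only (lower). Dashed lines are medians (0.55 and 0.59), and the solid line with its band is KDM2B at 1.76 with its 95% counting interval.

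Within 1 Mb of the gene on each side lay 28 other regions, of which 0 had the combination of peaks seen at KDM2B, beside 5.67% of all merged regions. H3K79me3 was called in both lines in 18 of them, with log2 ratios per kb from -0.09 to 1.02 and a median of 0.58. Of these, 16 were above 0 and 1 was at least 2-fold higher, beside 7.43% of all shared regions. All 24 neighbouring regions with a control H3K79me2 peak also had a knockdown H3K79me2 peak, whereas 19.0% of all control H3K79me2 peaks had none. The units differ, since the 24 are merged regions and the 19.0% counts single peaks without a directly overlapping knockdown peak. Their H3K79me2 had log2 ratios per kb from -0.65 to 0.27 and a median of -0.05. With so few regions these counts are not read as a difference from the genome. Regions of the same libraries are not replicates, and these values describe the surroundings only.

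The nearest peaks outside the span lay beyond its 3' end. Control H3K79me2 there held 560 tags in 5861 bp from 121837889 to 121843749, at 5.96 RPM per kb, and knockdown H3K79me2 held 399 tags in 4707 bp, at 6.45. H3K79me3 stood at 4.46 RPM per kb in control (341 tags in 4483 bp) and 7.38 in knockdown cells (463 tags in 3829 bp), a log2 ratio of 0.73. This region, 23.2 kb or more from the span, thus had an H3K79me2 peak in both lines, and its H3K79me3 ratio lay between the median (0.55) and the upper quartile (0.75) of all shared regions. In RefSeq's GRCh38 annotation the protein-coding neighbours of KDM2B are RNF34, an E3 ubiquitin ligase gene, and MORN3, and the peak was not assigned to either. The same annotation lists RNF34, KDM2B-DT and MIR7107 as genes that overlap KDM2B. On the upstream side the first peaks lay 45.6 kb or more away. They were H3K79me2 in both lines (53 tags in control and 93 in knockdown) and H3K79me3 in knockdown only (59 tags).

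**Figure D5:**
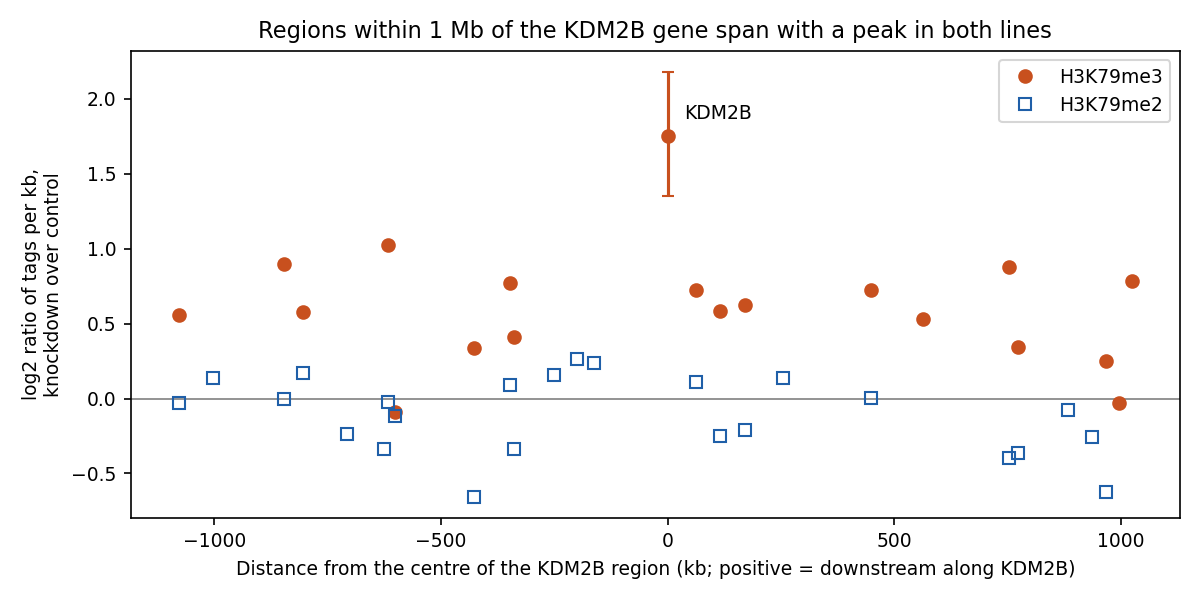
Log2 ratio of tags per kb, knockdown over control, against distance from the centre of the KDM2B region in kb, for regions within 1 Mb of the gene with a peak of that mark in both lines (filled circles H3K79me3, open squares H3K79me2). The KDM2B point at 1.76 carries its 95% counting interval, and the highest of the 18 neighbouring H3K79me3 regions is 1.02. The locus was picked partly on the KDM2B value, so nothing is read from its position.

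The regions most like KDM2B were sought among 477 others of the same combination outside input peaks, by Euclidean distance over the 3 log2 values of RPM per kb. The closest lay at chromosome 11, 107799192 to 107805493, at a distance of 0.25. Its control H3K79me2 was 3.66 RPM per kb, and its H3K79me3 was 2.02 in control and 5.51 in knockdown cells. The next was at chromosome 19, 1563160 to 1568047, at a distance of 0.32, with 4.05, 2.03 and 4.9998 RPM per kb in that order. The last was at chromosome 2, 97426686 to 97433939, at a distance of 0.37, with 4.21, 2.19 and 5.29. In all 3 a short control H3K79me3 peak of 1130 to 2139 bp stood beside a knockdown peak of 4198 to 6302 bp, as at KDM2B. This likeness rests on 3 values from 3 libraries. The matching used the H3K79me3 densities of both lines, whose difference partly picked the locus, so nothing is read from the likeness in H3K79me3.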

How the data were processed

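The submitters' processing notes name Bowtie2 (version: not given in the sources used here) and the build hg19 (GRCh37). MACS 1.4.2 called peaks in each library, per the file headers, without a control file, at a p cutoff of 1e-05 and with at most 1 tag per position. The tag count of a peak was deposited as a raw whole number. The fold enrichment was deposited as a ratio to the background of the same library, estimated over 10000 bp. The deposited significance column was treated as a score, since its values start at 50.02 in control H3K79me2, 10 times the negative log10 of the cutoff. Scores and folds are the authors' and served only to rank or filter peaks within a list.

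Only peaks on the assembled chromosomes (1 to 22, X, Y) entered. Tags were divided by the filtered tags in the headers. Overlapping peaks (at least 1 bp) were merged into regions, and a ratio was taken where each line had a peak. Intervals are exact Poisson, exact Clopper-Pearson or, for a ratio of tags, exact conditional binomial intervals at 95%. The ratio step was run on simulated tags in peaks of nearly equal length in both lines. That run does not cover calls of unequal length, such as those at KDM2B. Python 3.11.15, pandas 2.3.3, numpy 2.4.6, scipy 1.17.1 and matplotlib 3.10.9 were used.

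The locus, the lists and the settings were chosen with earlier results of these data known. Every member peak was named. The rule for the 3 most alike regions asked for 4 values, and because KDM2B has 3 it was applied to 3. The radius of 1 Mb and the quartiles were chosen after the values were seen.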

Additional observations from a re-analysis of the deposited data

How the results depend on the processing

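The H3K79me3 log2 ratio per kb at KDM2B was above 0 under each of the 8 alternatives that gave a value, from 1.20 to 3.002. It became 1.21 when centred on the median of shared regions, 1.20 with the tags in all peaks of a list as depth, and 3.002 without division by length; these last 2 settings were added after the data were seen. It stayed within its counting interval under the other 5. Of these, tags before duplicate removal as depth gave 1.74. The remaining 4 kept the same peaks at KDM2B, so they could not change the value and are no check on it. The log2 ratio of called length was 1.25. It was 1.19 when centred on the median of shared regions. The other 4 alternatives kept the same peaks at KDM2B, so the length ratio could not move under them.

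With a minimum score of 100 the control H3K79me3 peak was left out, so no ratio remained, and only control H3K79me2 and knockdown H3K79me3 kept their peak at KDM2B. The H3K79me2 ratios of tags per kb and of covered length could not be computed under any setting. The control H3K79me3 value rests on 57 tags, which limits its precision. No paired analysis was possible because each group has 1 library.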

Other observations

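Taken as a whole locus, KDM2B was compared in control cells with stretches of its size that also held a control H3K79me2 peak. Its called H3K79me2 was somewhat above their median, which leaves out stretches without such a peak. The chromosomes were divided into consecutive windows of the length of the gene, and 4421 windows held a control H3K79me2 peak, with a median of 3813 bp of called peak, against 4311 bp at KDM2B. In 632 of these windows (14.3%) no knockdown H3K79me2 peak was listed. Of the 5373 windows with any ChIP peak, 294 (5.47%) combined H3K79me2 in control only with H3K79me3 in both lines. Of the 3639 windows with H3K79me3 in both lines, 177 (4.86%) were at least 2-fold higher in knockdown cells. In 9 the log2 ratio per kb was at or above that of KDM2B. These are windows, not the regions of overlapping peaks described above, among which KDM2B had the highest ratio per kb. Because the locus was picked partly on this contrast, nothing is read from that position.

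Among the 45 regions with the same combination and at least 2-fold higher H3K79me3 per kb, the 3 with the highest ratios after KDM2B were picked out after their values were seen. They lay at chromosome 15, 75866822 to 75871533 (log2 ratio 1.58), chromosome 7, 5457712 to 5463502 (1.53), and chromosome 17, 79365432 to 79367916 (1.51). Their control H3K79me3 densities were 2.41, 4.02 and 3.603 RPM per kb, each above the 1.77 of KDM2B. That KDM2B density is part of the contrast that helped pick the locus, so nothing is read from this order.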
